A study of Mus musculus with 12 samples.

Results

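The T cell receptor (TCR) signals through the CD3 chains that surround it, and 9 genes of this receptor and its partners were followed here across 12 libraries of mouse thymocytes. They were taken by gene symbol from a fixed list and are 9 of 55335 gene rows. Cd3e, Cd3d and Cd3g encode the CD3 epsilon, delta and gamma chains, and Cd247 encodes the zeta chain. Cd4, Cd8a and Cd8b1 encode the coreceptors, Ptcra encodes the pre-TCR alpha chain, and Trac is the constant segment of the TCR alpha chain. All 9 were above the low-count filter in each comparison.

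RNA-seq and ribosome footprinting, which sequences the mRNA fragments that ribosomes shield from nuclease, were done on thymocytes of wild-type (WT) mice and mice lacking the microRNA pair miR-181a/b-1 (KO). All mice were 6 weeks old and kept free of specific pathogens. In every group the thymus was passed through a 70 µm strainer and the cells went straight into buffered saline with 0.1 mg/ml cycloheximide, a drug that stalls ribosomes, and both kinds of library were built with a kit sold for ribosome profiling. The 4 groups of 3 libraries were RNA-seq WT, RNA-seq KO, footprint WT and footprint KO. No source used here gives strain, sex or how the deletion was made, or ties a footprint library to the RNA-seq library of the same mouse.

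The TCR and its partners are made in steps. Early thymocytes with neither coreceptor pair a TCR beta chain with the pre-TCR alpha chain and CD3. Cells that pass this step take up CD4 and CD8 together, replace the pre-TCR alpha chain with a rearranged TCR alpha chain, and after selection keep only CD4 or only CD8. CD3 epsilon pairs with delta and with gamma, the zeta chains join last, and the cytoplasmic tails carry the tyrosines that Lck, carried by CD4 and CD8, phosphorylates. MiR-181a is abundant in thymocytes and is known for setting how strongly they respond to TCR ligands.

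The 4 mature 5p microRNAs of the miR-181 family are shown because the deleted pair makes the a and b forms and all 4 share a seed, bases 2 to 8 from the 5′ end, given in capitals. The sequences are RefSeq's, on GRCm38.p6.
miR-181a-5p: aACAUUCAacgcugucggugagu
miR-181b-5p: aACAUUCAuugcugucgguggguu
miR-181c-5p: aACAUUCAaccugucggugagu
miR-181d-5p: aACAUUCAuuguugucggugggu
The copies at the deleted locus lie on the plus strand at chr1:137966468-137966490 for miR-181a-5p and chr1:137966650-137966673 for miR-181b-5p. The same mature sequences of a and b are also encoded on chromosome 2, by Mir181a-2 and Mir181b-2, and c and d come from chromosome 8. No match to the seed in the member transcripts was looked for here, since their sequences were not used.

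Cd3g, Cd3d and Cd3e are neighbours on chromosome 9, and the 250 bases before the start of each are shown because in footprints every KO library was above every WT library for these 3 genes. The window of Ptcra, whose footprints fell, is shown beside them. Capitals mark the E-box (CANNTG, which reads alike on both strands in these fixed letters) and the Ets core (GGAA, or TTCC on the other strand); matches that touch or overlap run together.
Cd3e, chr9:45009612-45009861, minus strand: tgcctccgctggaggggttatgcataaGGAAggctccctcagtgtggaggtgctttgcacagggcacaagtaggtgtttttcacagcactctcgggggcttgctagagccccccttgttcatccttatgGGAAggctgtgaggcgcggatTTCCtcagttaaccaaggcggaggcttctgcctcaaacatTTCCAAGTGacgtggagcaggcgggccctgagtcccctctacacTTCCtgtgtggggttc
Cd3d, chr9:44981536-44981785, plus strand: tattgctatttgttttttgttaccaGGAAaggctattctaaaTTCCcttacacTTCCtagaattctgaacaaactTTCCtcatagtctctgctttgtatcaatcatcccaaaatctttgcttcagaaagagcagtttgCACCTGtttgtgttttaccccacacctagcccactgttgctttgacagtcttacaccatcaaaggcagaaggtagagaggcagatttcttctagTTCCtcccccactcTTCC
Cd3g, chr9:44980432-44980681, minus strand: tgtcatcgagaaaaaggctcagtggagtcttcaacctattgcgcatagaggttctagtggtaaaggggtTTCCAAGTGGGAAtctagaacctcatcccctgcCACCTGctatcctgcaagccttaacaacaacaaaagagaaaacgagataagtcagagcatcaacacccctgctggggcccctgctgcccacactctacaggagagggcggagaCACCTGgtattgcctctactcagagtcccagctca
Ptcra, chr17:46763713-46763962, minus strand: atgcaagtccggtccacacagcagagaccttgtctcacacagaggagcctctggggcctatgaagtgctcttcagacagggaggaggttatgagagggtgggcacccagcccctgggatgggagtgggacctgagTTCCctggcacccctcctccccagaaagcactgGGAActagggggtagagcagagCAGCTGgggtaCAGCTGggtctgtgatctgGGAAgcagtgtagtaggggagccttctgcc
The starts of Cd3g and Cd3d lie 1355 bases apart on opposite strands, and the start of Cd3e is 27825 bases from that of Cd3d. The RefSeq promoter table (GRCm38.p6) held 6 of the 9 members. Of 32851 windows of this length, 66.2% held an E-box and 93.4% an Ets core. The Cd3d window held 6 Ets cores, a number reached in 8.69% of all windows, and that of Cd3e held 5, a number reached in 18.03%. The window of Cd8a, a gene called in neither assay, also held 6 Ets cores. Those of Cd3g and Cd247 held 2 and 1. The Cd3g window held 3 E-boxes, a number reached in 12.2%, while Cd3e and Cd3d held 1 each. The Ptcra window held 2 E-boxes and 3 Ets cores, numbers reached in 31.8% and 54.7% of windows. Neither TGTGGT, a Runx motif, nor TATAAA was found on either strand in any of the 6 members' windows, and these were in 14.0% and 12.4% of all windows. Such matches describe these letters only.

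Some properties of the libraries touch every value below. Reads in genes numbered 4479182 to 8180286 per RNA-seq library and 4069968 to 17859770 per footprint library, and the members took 0.475% to 0.497% and 0.956% to 1.24% of them. Values are CPM, the counts of a gene scaled to a library total of 1000000 reads in genes, with TMM factors within an assay. Mir181a-1, the check of the genotype, was at 166, 133 and 145 CPM in WT footprint libraries and at 0.464, 1.04 and 0.982 CPM in KO ones. In RNA-seq its row held only 57 WT and 67 KO reads and does not check those labels, so the RNA-seq libraries are called by their labels and directions there rest on them. Same-numbered WT and KO libraries departed from their group means in opposite directions, with correlations over genes of -0.99 to -0.98 in RNA-seq (5714 genes) and -0.99 in footprints (5330 genes), against 0.10 to 0.75 and 0.40 to 0.64 for unlike numbers. The members did the same in 53 of 54 same-numbered pairs. The deposited counts are named as adjusted, what was adjusted is not stated, and with such mirrored values the SDs, SEs and p-values below may not measure the spread between mice.

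Thymocyte genes marked the material as labelled. The summed level of 8 genes of all thymocytes was 10133 to 11147 CPM in WT-labelled and 10031 to 10910 CPM in KO-labelled RNA-seq libraries. These 8 genes include the members Cd3e and Trac, and Satb1 alone averaged 5918 CPM in WT-labelled and 5933 CPM in KO-labelled libraries. No gene of the 12 marker lists was at 0 in all libraries of an assay. In bulk libraries, fewer cells of a type and less RNA per cell cannot be told apart.

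In RNA-seq no member passed the threshold between genotypes, and in footprints Cd4 rose and Ptcra fell. At an edgeR FDR under 0.05, 0 of 9 members were called in RNA-seq, where 6.91% of the 13652 genes tested were called. At an unadjusted p under 0.05 in the same edgeR test there were 3 members, Cd4, Ptcra and Cd247, against 23.8% of all genes, and DESeq2 also called 0 of 9. In footprints 2 of 9 were called, 1 higher and 1 lower, against 17.6% of 13509 genes, 9.25% higher and 8.34% lower. At an unadjusted p under 0.05 there were 5 of 9 in footprints, against 33.1% of all genes. With replicate number as a block, which treats same-numbered WT and KO libraries as a pair, 1 member (Cd4) was called in footprints and 0 in RNA-seq, against 3.02% and 0.806% of genes. The members' median log2 fold change was 0.03 in RNA-seq and 0.10 in footprints, beside medians over all genes tested of -0.00053 and -0.01.

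**Figure D1:**
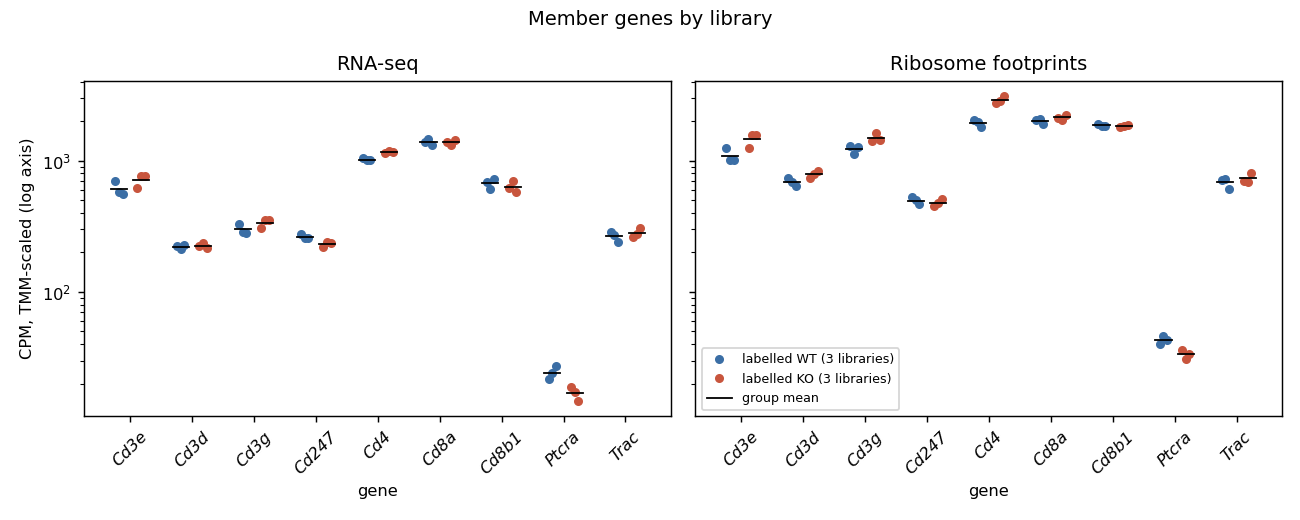
CPM (log axis) of the 9 genes in each of 3 libraries labelled WT (blue) and 3 labelled KO (red), RNA-seq on the left and footprints on the right, with a line at each group's mean. In footprints the KO points of Cd4, Cd3e, Cd3g and Cd3d lie above all WT points and those of Ptcra below them.

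Among the coreceptors, Cd4 had the lowest FDR of the 9 members, and Cd8a and Cd8b1 were not called. CD4 binds MHC class II and CD8 binds MHC class I on the presenting cell, and both carry Lck to the receptor. In footprints, Cd4 (ENSMUSG00000023274.14, chromosome 6) was at 2056, 1986 and 1817 CPM in WT libraries 1 to 3 and at 2756, 2856 and 3094 CPM in KO libraries 1 to 3. Every KO library was above every WT library, and the means were 1953 ± 123 and 2902 ± 174 CPM (SD, n = 3). Cd4 rose by a log2 fold change of 0.57 (SE 0.06, 95% interval 0.42 to 0.73, edgeR FDR 0.00335), which is 48.6% more. The rise was called without any 1 of the 6 libraries (edgeR FDR 0.00938 to 0.0186, log2 fold change 0.52 to 0.61).

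In RNA-seq, Cd4 was at 1040.5, 1004 and 1007 CPM in the libraries labelled WT and at 1138, 1182 and 1165 CPM in those labelled KO. These groups did not overlap either, but the log2 fold change of 0.19 (SE 0.05) had an edgeR FDR of 0.0685 and was not called. The footprint change exceeded the RNA change by 0.38 on the log2 scale (SE 0.09, 95% interval 0.18 to 0.57). This excess, the interaction term of genotype with assay, had an unadjusted p of 0.00119 and an edgeR FDR of 0.104, and was called by DESeq2 (adjusted p 0.0327). Across its other alternatives the edgeR FDR of this excess lay above 0.05, and it was 0.141 to 0.225 without 1 of the 12 libraries.

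Markers of thymocyte stages moved with Cd4. Of 6 genes of mature single-positive thymocytes, 2 rose in footprints, among them Cd69, an early activation marker, and none fell. Over all genes tested, 9.25% were called higher and 8.34% lower in footprints, and 6.91% were called in RNA-seq. The list's summed level was 573 to 604 CPM in WT and 635 to 675 CPM in KO footprint libraries. In RNA-seq the sum was 387 to 416 and 421 to 463 CPM, with 1 gene called higher (Cd69) and 2 lower (Ccr7 and Klf2). The sum over 8 genes of double-positive thymocytes was 17864 to 18608 CPM in WT and 16525 to 17099 CPM in KO footprint libraries, with Rag1 lower, Themis higher and Cd8b1 itself a member of that list. With replicate number as a block, Cd69 in footprints was the 1 gene of these 2 lists called, against 3.02% of all genes there. No gene of either list was at 0, and the part of these shifts in the Cd4 result was not tested.

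Cd8a (ENSMUSG00000053977.13, chromosome 6) was called in neither assay. Its footprints were 2024, 2089 and 1903 CPM in WT and 2126, 2053 and 2241 CPM in KO, 2 groups that overlapped (log2 fold change 0.09, 95% interval -0.03 to 0.22, edgeR FDR 0.272). Its RNA-seq levels were 1388, 1456 and 1327 CPM in the WT-labelled and 1391, 1318 and 1441 CPM in the KO-labelled libraries, also overlapping (log2 fold change -0.01, 95% interval -0.16 to 0.14).

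Cd8b1 (ENSMUSG00000053044.8, chromosome 6), the CD8 beta chain, was the member whose footprints differed least. They were 1889, 1850.2 and 1829 CPM in WT and 1813, 1848 and 1860.5 CPM in KO, within 30.3 and 24.8 CPM of SD around 1856 and 1840.3 CPM. The 95% interval of the log2 fold change ran from -0.09 to 0.07. In RNA-seq the spread was wider, with 689, 613 and 719 CPM in WT-labelled and 614, 694 and 579 CPM in KO-labelled libraries (log2 fold change -0.10, 95% interval -0.32 to 0.12).

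**Figure D2:**
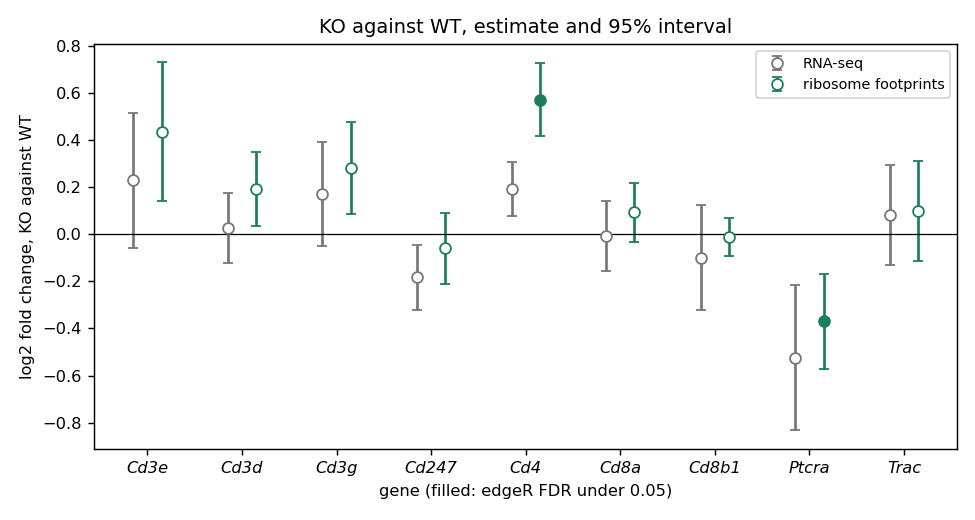
Log2 fold change of KO against WT for the 9 genes in RNA-seq (grey) and footprints (green) with 95% intervals from edgeR; filled points had an FDR under 0.05. Only Cd4 (0.57) and Ptcra (-0.37) are filled, both in footprints, and the footprint point lies above the RNA-seq point for each gene.

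The CD3 chains made by the chromosome 9 cluster leaned toward higher footprints in KO libraries without being called. Footprint groups did not overlap for 5 of 9 members (38.1% of all genes tested), 4 with KO higher (Cd3e, Cd3d, Cd3g and Cd4) and 1 with KO lower (Ptcra); the shares of all genes by direction were 18.5% and 19.6%. Cd3e (ENSMUSG00000032093.7), whose product is the shared partner of the delta and gamma chains, was at 1245, 1008 and 1005 CPM in WT and 1253, 1579.8 and 1576 CPM in KO footprint libraries. The highest WT and the lowest KO library differed by little, and both are replicate 1. The log2 fold change was 0.44 (SE 0.12, 95% interval 0.14 to 0.73) with an edgeR FDR of 0.0558. It was called without WT replicate 1 (edgeR FDR 0.0348) or KO replicate 1 (0.0309), and under DESeq2 (adjusted p 0.000517). In the authors' deposited table the log2 fold change of Cd3e in footprints is 0.40 with an adjusted p of 0.0011, listed there as significant.

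Cd3g (ENSMUSG00000002033.14), the gamma chain, was at 1299, 1117 and 1278 CPM in WT and 1414, 1635 and 1433 CPM in KO footprint libraries. Its log2 fold change was 0.28 (SE 0.08, 95% interval 0.08 to 0.47, edgeR FDR 0.0616), and DESeq2 called it (adjusted p 0.011). The authors' deposited table likewise lists Cd3g as significant in footprints, at 0.26 with an adjusted p of 0.0112. Cd3d (ENSMUSG00000032094.8), the delta chain, was at 733, 682 and 646 CPM in WT and 734, 792 and 830.0 CPM in KO footprint libraries, with WT replicate 1 and KO replicate 1 next to each other. Its log2 fold change was 0.19 (SE 0.06, 95% interval 0.04 to 0.35, edgeR FDR 0.0929).

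RNA of the 3 chains overlapped between genotypes. Cd3e was at 701, 575 and 559.8 CPM in WT-labelled and 622, 764 and 764 CPM in KO-labelled RNA-seq libraries (log2 fold change 0.23, 95% interval -0.06 to 0.52, edgeR FDR 0.307). Cd3g was at 330.2, 286 and 282 and 305, 354 and 352 CPM (log2 fold change 0.17, 95% interval -0.05 to 0.39). Cd3d was at 223, 211 and 229 and 223, 237 and 215 CPM, with a log2 fold change of 0.03 and a 95% interval of -0.12 to 0.18. In each case WT replicate 1 or 3 lay above at least 1 KO library.

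Cd247 (ENSMUSG00000005763.15, chromosome 1), the zeta chain with the most signalling motifs of the complex, did not lean the same way as the other chains. In RNA-seq it was at 275, 257 and 257 CPM in WT-labelled and 222, 238 and 235 CPM in KO-labelled libraries, so every KO-labelled library was below every WT-labelled one. The log2 fold change was -0.18 (SE 0.06, 95% interval -0.32 to -0.04, edgeR FDR 0.118). Its footprints overlapped, at 525, 502 and 465 CPM in WT and 452, 474 and 508 CPM in KO (log2 fold change -0.06, 95% interval -0.21 to 0.09, edgeR FDR 0.563). Cd247 overlaps Gm23402, Gm32999 and Pou2f1 in the RefSeq annotation, and whether the counting used strand is not stated.

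The pre-TCR alpha chain gene moved opposite to Cd4. Ptcra (ENSMUSG00000036858.8, chromosome 17) was at 40.0, 46.5 and 43.2 CPM in WT and 36.3, 31.0 and 33.6 CPM in KO footprint libraries, with no overlap. It fell by 0.37 on the log2 scale (SE 0.08, 95% interval of the change -0.57 to -0.17, edgeR FDR 0.0293), which is a change of -22.6%. The call did not hold with replicate number as a block (edgeR FDR 0.155) or without WT replicate 2 (0.0759), WT replicate 3 (0.0675), KO replicate 2 (0.0996) or KO replicate 3 (0.0678). In the authors' deposited table Ptcra is listed as significantly lower in footprints, at -0.33 with an adjusted p of 0.0274.

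In RNA-seq Ptcra was at 21.8, 24.0 and 27.1 CPM in WT-labelled and 19.0, 17.3 and 14.7 CPM in KO-labelled libraries, from 506 and 321 reads in all, again with no overlap. The log2 fold change of -0.52 (SE 0.13, 95% interval -0.83 to -0.22) had an edgeR FDR of 0.063. The footprint change differed from it by 0.16 (95% interval -0.18 to 0.50, edgeR FDR 0.702). The RNA-seq change of Ptcra was called with no filter on low counts (edgeR FDR 0.0405) and in a joint fit of the 12 libraries (0.0171). RNA-seq groups did not overlap for 3 members, Cd4 with KO higher and Ptcra and Cd247 with KO lower, where 30.9% of all genes tested did not overlap, 15.5% with KO higher and 15.4% with KO lower.

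Markers of the stage that uses the pre-TCR were mixed. Of 5 genes of double-negative thymocytes 1 was called in each assay, Il2ra, the interleukin-2 receptor alpha chain, and it was higher in KO. The shares called over all genes tested were 6.91% in RNA-seq and 17.6% in footprints, 9.25% being higher and 8.34% lower in footprints. In RNA-seq the log2 fold change of Il2ra was 0.85 (edgeR FDR 0.00675). With the replicate block Il2ra was still called in RNA-seq (edgeR FDR 0.0198) and footprints (0.0446), where 0.806% and 3.02% of genes were. Il2ra averaged 92.8 CPM in WT and 121 CPM in KO footprint libraries and so made up most of the difference in the list's sum, while Hes1, a Notch target, had a log2 fold change of -0.37 (edgeR FDR 0.0741). The list's summed level was 219.7 to 226 CPM in WT and 249.9 to 258 CPM in KO footprint libraries, and 167 to 184 against 212 to 228 CPM in RNA-seq. No gene of the list was at 0. Of 5 dendritic cell genes 2 fell in footprints, Siglech and Flt3, of which Flt3 was not called with the replicate block (edgeR FDR 0.222), the sum being 41.9 to 52.5 CPM in WT and 27.0 to 38.7 CPM in KO. Of 5 thymic epithelium genes 1 fell, Epcam, which was not called with the block (edgeR FDR 0.104), with a sum of 75.5 to 82.3 CPM in WT and 59.8 to 70.5 CPM in KO. Of 5 B cell genes 1 rose in footprints, Cd79b (log2 fold change 0.48, edgeR FDR 0.00416, with the block 0.0466). The B cell sums overlapped in footprints but not in RNA-seq, at 236 to 268 CPM in WT-labelled and 286 to 326 CPM in KO-labelled libraries. Of 3 NK cell genes tested in footprints 2 fell, and the 1 tested in RNA-seq rose. Gamma-delta T and erythroid genes had 1 fall each in footprints. The part of these shifts in the Ptcra result was not tested.

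Trac (ENSMUSG00000076928.5, chromosome 14) is the segment that every rearranged alpha chain shares. Its footprints were 717, 722 and 611 CPM in WT and 699, 692 and 808 CPM in KO, and its RNA-seq levels 287, 272 and 241 and 263, 277 and 306 CPM. Both pairs of groups overlapped, with log2 fold changes of 0.10 (95% interval -0.11 to 0.31, edgeR FDR 0.496) and 0.08 (-0.13 to 0.29, edgeR FDR 0.629). In RefSeq the segment lies within the record of the whole Tcra locus.

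The footprint change exceeded the RNA change in sign for all 9 members, but these signs share libraries and scaling. How many of all genes had a positive excess was not counted. In the interaction test 0 of 9 members were called, where 0.211% of 11854 genes were called (edgeR). At an unadjusted p under 0.05 there was 1 member, Cd4, against 14% of all genes, and DESeq2 called that same gene. Next to Cd4, the excess was 0.21 for Cd3e (95% interval -0.18 to 0.59) and 0.16 for Cd3d (-0.05 to 0.37). It was smallest for Trac, at 0.01 (-0.27 to 0.30), and its sign reversed there in 4 of the 12 fits without 1 library. The members' median excess was 0.12, beside 0.01 over all genes tested.

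Ratios of counts between members of 1 library do not depend on its depth or scaling, and 10 such ratios, 5 pairs in both assays, were compared between genotypes. Since gene lengths were not used, only the change of a ratio is read, not its size. The ratio of Cd4 to Cd8a in footprints was 1.02, 0.951 and 0.955 in WT and 1.30, 1.39 and 1.38 in KO libraries, with no overlap and a log2 difference of 0.48. In RNA-seq it was 0.750, 0.690 and 0.759 in WT-labelled and 0.818, 0.897 and 0.809 in KO-labelled libraries, also with no overlap and a log2 difference of 0.20. Every KO library therefore stood above every WT library of its assay.

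Within the CD3 complex the ratio of epsilon to zeta separated by genotype. Cd3e to Cd247 in footprints was 2.37, 2.01 and 2.16 in WT and 2.77, 3.33 and 3.10 in KO libraries, and in RNA-seq it was 2.55, 2.24 and 2.18 and 2.81, 3.21 and 3.25. Neither pair of groups overlapped, and the log2 differences were 0.49 and 0.41. Ptcra to Trac had means of 0.0637 ± 0.00747 in WT and 0.0461 ± 0.00527 in KO footprints (SD, n = 3), and of 0.0922 ± 0.0186 and 0.0609 ± 0.0121 in RNA-seq, again with no overlap. Each of these 6 ratios had an exact two-sided permutation p of 0.1, the smallest that 3 against 3 libraries can give, and an adjusted p of 0.167 over the 10 ratios. The test takes the libraries of an assay as exchangeable, which the mirrored same-numbered libraries may not be.

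The remaining pairs, subunits of 1 dimer or of like position, overlapped. Cd8a to Cd8b1, whose products form the CD8 heterodimer, had means of 1.08 ± 0.0449 in WT and 1.16 ± 0.0476 in KO footprints (SD, n = 3; exact permutation p = 0.2). In RNA-seq the means were 2.08 ± 0.271 and 2.22 ± 0.298 (SD, n = 3; exact permutation p = 0.7). Cd3d to Cd3g had log2 differences of -0.09 in footprints (exact permutation p = 0.5) and -0.14 in RNA-seq (exact permutation p = 0.2).

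**Figure D3:**
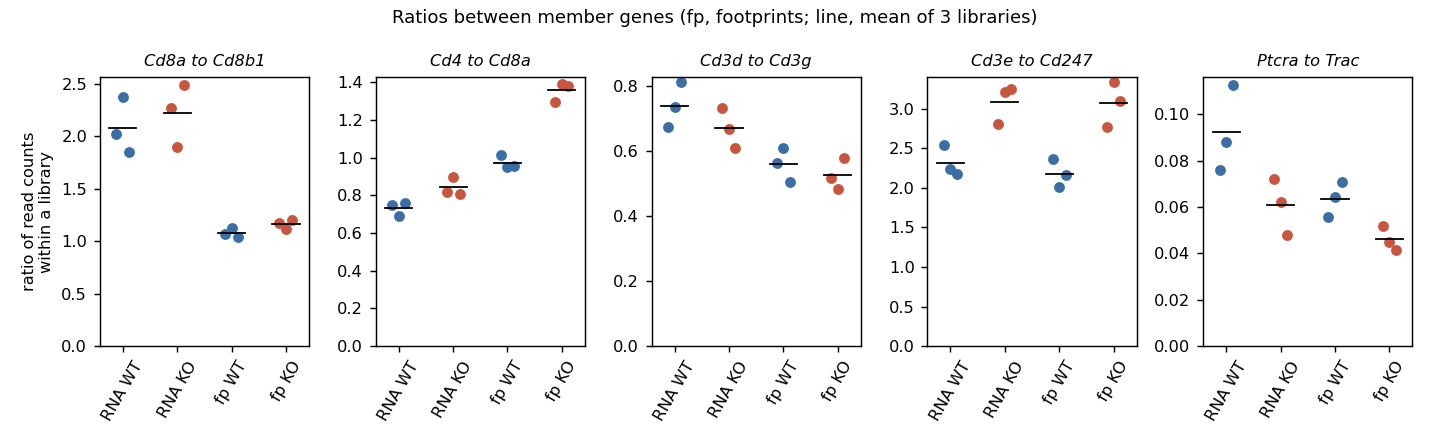
Ratio of read counts between pairs of member genes in each library (points) with the mean of 3 libraries (line), RNA-seq and footprints (fp), WT in blue and KO in red, each axis starting at 0. The points of Cd4 to Cd8a, Cd3e to Cd247 and Ptcra to Trac separate by genotype in both assays, and those of the other pairs do not.

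All 9 members carried more footprints per RNA read than the median gene tested. In the WT libraries 9 of 9 had more footprints than RNA-seq reads after joint TMM scaling (edgeR FDR under 0.05), where 85.3% of 14385 genes were called in either direction and 41.9% were higher. This footprint to RNA ratio compares a gene with itself across assays and is relative to the other genes. A row could pass the filter through 1 assay alone, and the genes tested include the microRNA row Mir181a-1. Reads in no annotated feature were 50.9% to 57.1% in RNA-seq and 5.32% to 6.39% in footprints. Coding lengths were not used, so ratio and rank do not by themselves measure translation. Cd3g stood highest, at a log2 ratio of 2.32 (SE 0.09), above 94.4% of genes tested. Cd3d followed at 1.92, above 90.6%, then Cd8b1 at 1.74 and Trac at 1.64. Cd4 (1.22), Cd247 (1.20), Cd3e (1.11) and Ptcra (1.11) were close together, and Cd8a was lowest at 0.81 (SE 0.08), above 70.8% of genes. The median of all genes was -0.02, with quartiles at -1.22 and 0.99.

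Neighbours in this order were compared over the WT libraries by the ratio of their counts in footprints and in RNA-seq. These ratios did not overlap between assays for Cd3g and Cd3d, Cd3d and Cd8b1, or Trac and Cd4. They overlapped for Cd8b1 and Trac, Cd4 and Cd247, Cd247 and Cd3e, Cd3e and Ptcra, and Ptcra and Cd8a. Overlap of so few libraries does not show that neighbours are alike. The difference of Ptcra and Cd8a, 0.31 on the log2 scale, was larger than the 0.17 of Cd3d and Cd8b1. The CD3 chains lay at both ends of the list, gamma and delta at the top and epsilon near the bottom, and the CD8 chains were apart too, with the beta chain at 1.74 and the alpha chain at 0.81.

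The KO libraries gave the same order. The log2 ratio was 2.44 for Cd3g, 2.09 for Cd3d, 1.84 for Cd8b1, 1.66 for Trac and 1.61 for Cd4. It was 1.33 for Cd247, 1.32 for Cd3e, 1.27 for Ptcra and 0.92 for Cd8a. In KO libraries, unlike WT, the ratio of Cd4 overlapped with that of Trac and no longer with that of Cd247. Ptcra and Cd8a no longer overlapped either, with a difference of 0.36 on the log2 scale. With TMM scaling within each assay, the median over all genes moved by -0.32 on the log2 scale and the members lay between 0.49 and 2.01, all still above 0 and called.

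**Figure D4:**
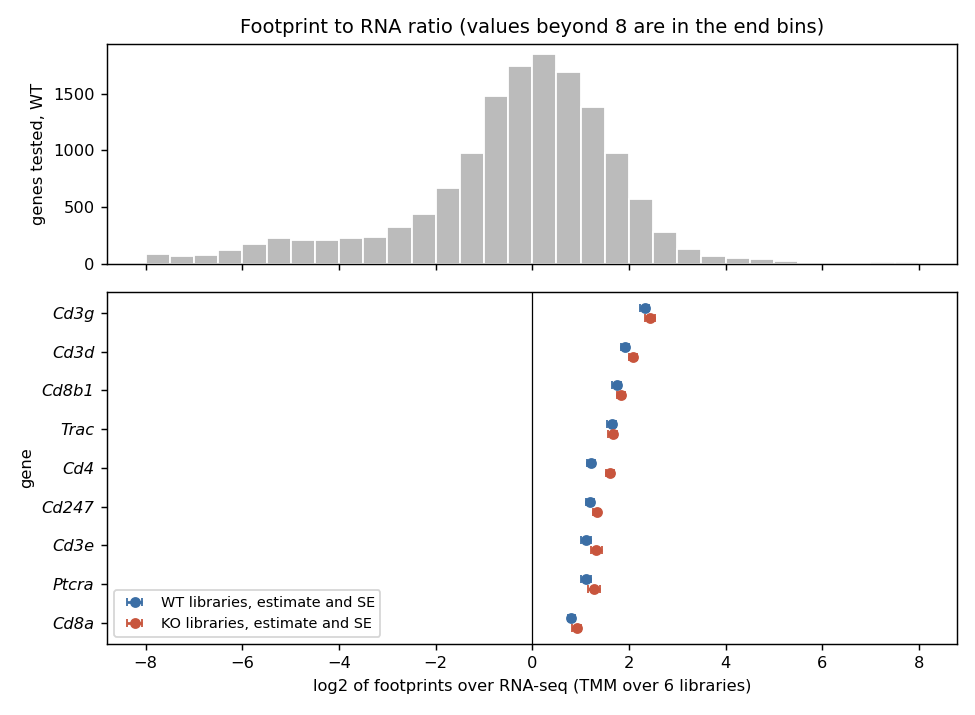
Log2 ratio of footprints over RNA-seq. Top, number of genes per bin over the 14385 genes tested in WT libraries; bottom, the 9 members in WT (blue) and KO (red) libraries with the SE. All members lie to the right of 0, from Cd8a at 0.81 to Cd3g at 2.32 in WT, and each red point lies to the right of its blue point.

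Members were also compared with each other over the 12 libraries, after their log2 CPM was centred within each assay. These correlations describe points that share libraries, genotype and the mirrored replicate numbers, and carry no test. Cd3e went most closely with Cd3g (Pearson r = 0.91) and Cd4 (0.84), and Cd3d with Cd4 (0.83). Ptcra ran against Cd3g (-0.87) and Cd3e (-0.85). Cd247 was unlike the other CD3 chains, at -0.27 with Cd3g, -0.04 with Cd3e and 0.10 with Cd3d. Cd8a went with Trac (0.77) and not with Cd8b1 (-0.49), its partner in the heterodimer.

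The genes most like each member were sought in the same way among the 4449 other genes with a mean log2 CPM of at least 5 in both assays (4450 for Ptcra). For Cd4 they were Dusp6, a phosphatase of the kinase ERK, and Ankmy2, both at an r of 0.98. For Cd3e they were Lgals8 (0.99) and Cast (0.97), for Cd3g Lonp2 and Rala (both 0.97), and for Cd3d Maea (0.98) and Ramp1 (0.96). Cd247 was most like Bicd2 (0.97) and Gse1 (0.95), and Cd8a most like Mapk1ip1l (0.95) and Rpph1 (0.92). Cd8b1 was most like Prmt1 (0.99) and Maz (0.96), Ptcra like Polr2a and Tspan3 (both 0.99), and Trac like Dazap2 and Foxo1 (both 0.97). None of these 18 genes stood in the lists described next.

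The genes that work on or with the members were taken as 4 lists. Over all genes tested, 6.91% were called in RNA-seq, and 9.25% were called higher and 8.34% lower in footprints. With the replicate number as a block, 0.806% were called in RNA-seq and 3.02% in footprints. Of 6 other TCR constant genes, 0 were called in RNA-seq and 1 was higher in footprints, with list medians of 0.06 and 0.13. That gene was Trbc1, a constant segment of the TCR beta chain, with means of 373 ± 28.9 and 472 ± 35.4 CPM in WT and KO libraries (SD, n = 3). Its log2 fold change was 0.34 (edgeR FDR 0.0289), and the call did not hold with replicate number as a block (edgeR FDR 0.115) or without WT or KO replicate 1 or 3. Trbc1 has a near-identical copy, Trbc2, at 0.18 (edgeR FDR 0.0797), and reads of the pair may be split unevenly by the counting. Tcrg-C4, a gamma constant gene at 6.64 and 8.05 CPM, had 0.33 (edgeR FDR 0.0691) in footprints.

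Of 18 kinases and adaptors that dock on the receptor or coreceptors, 8 were higher and 1 lower in footprints (9.25% and 8.34% of all genes). The list median was 0.17 in footprints and -0.04 in RNA-seq. The largest changes were those of Syk, a kinase that binds phosphorylated CD3 and zeta tails beside Zap70, and of Cd28, the costimulatory receptor. Footprints of Syk averaged 33.7 ± 7.41 CPM in WT libraries and 58.7 ± 12.6 CPM in KO libraries (SD, n = 3). The log2 fold change was 0.81 at an edgeR FDR of 0.045, and the omission of any 1 library ended this call (FDR 0.0562 to 0.103). Those of Cd28 averaged 22.8 ± 1.97 and 32.3 ± 3.03 CPM (SD, n = 3), a log2 fold change of 0.53 at an edgeR FDR of 0.0104, kept without each library but not with the block (FDR 0.0719).

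The other called genes of this list were Cd5, Cd2, Nck1, Themis, Lcp2 and Ptprc, with log2 fold changes between 0.17 and 0.31, and Lck, the coreceptor-bound kinase, at -0.12 (edgeR FDR 0.0457); they are named here after their values were seen. With the replicate number as a block 0 of the 18 were called in either assay.

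Of 13 genes of receptor assembly and turnover, 1 was higher and 4 were lower in footprints (9.25% and 8.34% of all genes). The list median was -0.10. Unc119, an activator of Lck, rose by 0.78 on the log2 scale (edgeR FDR 0.0215) at a low level, 2.60 ± 0.385 CPM in WT and 4.23 ± 0.641 CPM in KO libraries (SD, n = 3). Its call did not hold without WT replicate 1 or 2 or KO replicate 2. The lower genes, Calr and Hspa5, chaperones of the endoplasmic reticulum, and Cbl and Ubash3b, which act in the turnover and damping of TCR signals, lay between -0.47 and -0.15. In RNA-seq 1 of 12 tested was called, Ubash3b at -0.63 (edgeR FDR 0.0215), a call that the omission of any 1 library ended (FDR 0.0593 to 0.0816). With the replicate number as a block 0 were called in either assay.

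Of 18 transcription factors of the member genes, 2 were higher in footprints, where 9.25% of all genes were. In RNA-seq 1 was lower, where 6.91% of all genes were called in either direction. The list medians were 0.04 in footprints and 0.03 in RNA-seq. Tox, a nuclear factor needed for CD4 lineage thymocytes, rose by 0.74 on the log2 scale in footprints (edgeR FDR 0.00118), with means of 208 ± 12.5 CPM in WT and 349 ± 20.05 CPM in KO libraries (SD, n = 3). It was the 1 gene of the 4 lists also called with the replicate number as a block (edgeR FDR 0.00222). In RNA-seq Tox averaged 140.3 ± 23.5 and 224 ± 32.0 CPM (SD, n = 3), and its log2 fold change of 0.68 was not called (edgeR FDR 0.0507). It was called under DESeq2 (adjusted p 0.000148), with no filter on low counts (edgeR FDR 0.0127) and in the joint fit (0.00392). Zbtb7b, which directs cells to the CD4 lineage, had -0.62 in RNA-seq (edgeR FDR 0.0822). The other called genes, named after their values were seen, were Tcf12 (0.14, edgeR FDR 0.0288) in footprints and Tcf7 (-0.26, edgeR FDR 0.0477) in RNA-seq. In the interaction of genotype and assay, 0 genes of the 4 lists were called, against 0.211% of all genes tested.

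**Figure D5:**
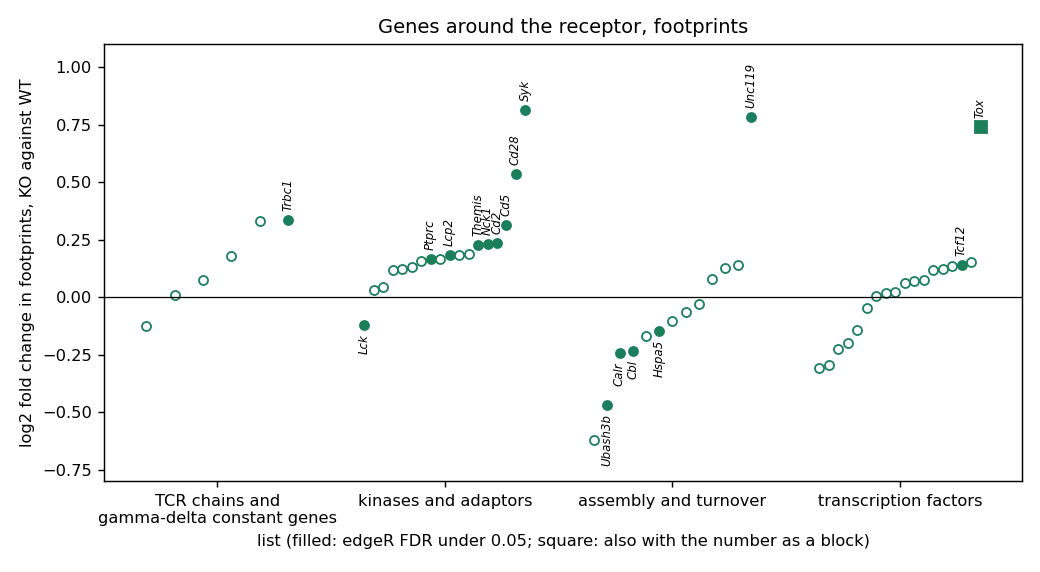
Log2 fold change of KO against WT in footprints for each gene of the 4 lists, sorted within a list; filled points had an edgeR FDR under 0.05 and the square also with the replicate number as a block. Kinases and adaptors show 8 filled points above 0 and 1 below, and the square is Tox at 0.74.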

How the data were processed

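Thymocytes were profiled by RNA-seq and ribosome footprinting, 3 libraries per genotype and assay. The authors deposited integer counts for Ensembl genes in a table for each assay and named them as adjusted. The submitters' processing notes list FastQC, Bowtie2 2.5.1, STAR 2.7.10a, HTSeq 2.0.3 and DESeq2 1.40.2, while no source used here states the genome build, the annotation or the use of strand. The authors' deposited tables of KO against WT hold log2 fold changes and adjusted p-values, and 12 other per-library columns in them were not used. Symbols were matched for 54587 versioned IDs and for 567 more without the version, 1 came from the authors' tables, and 180 of 55335 rows had none. Another 5 rows of reads outside genes were left out; 27.0% to 28.5% of RNA-seq and 72.3% to 73.1% of footprint reads lay in genes.

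Counts were fitted with edgeR 4.0.16 in R 4.3.3 (TMM, filterByExpr with a minimum count of 10, quasi-likelihood test), and p-values were adjusted by Benjamini-Hochberg over all genes tested, with calls at an FDR under 0.05. The SE is the log2 fold change divided by the square root of F. The fits were tested on simulated data. Ratios between members used a two-sided exact permutation test over libraries. Members and lists were chosen with earlier results of these data known, and the values of 2 listed genes are not reported here. Named from each list and assay were up to 4 genes called with and without the replicate number as a block or, where there was none, the 2 largest changes. The alternatives tried were DESeq2 1.42.0, RLE scaling, a joint fit, no low-count filter, the replicate block, an FDR of 0.1 and leaving out each library. Replicate pairs differed by more than sampling noise (chi-square per degree of freedom 3.41 to 12.9).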

Additional observations from a re-analysis of the deposited data

Results flagged for a closer look

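The change of Mir181a-1 between genotypes differed between assays: the footprint change exceeded the RNA-seq change by -7.80 on the log2 scale (edgeR interaction test, FDR 0.000318). Footprints went from 148 ± 16.8 to 0.828 ± 0.317 CPM (SD, n = 3), lower in 3 of 3 KO libraries, while RNA-seq held 57 reads in WT-labelled and 67 in KO-labelled libraries.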

How the results depend on the processing

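Cd4 in footprints kept its direction and call under every alternative run. In RNA-seq 943 genes were called, against 532 under DESeq2, 1561 in a joint fit, 1742 at an FDR under 0.1 and 215 to 323 without 1 library. Members called there were 0, against 1 with no filter, 1 in a joint fit and 2 at an FDR under 0.1. In footprints 2376 genes were called, against 1235 under DESeq2 and 1035 to 1554 without 1 library; 2 members were called, against 4 under DESeq2, 4 with no filter, 5 at an FDR under 0.1 and 1 to 3 without 1 library. In the interaction 25 genes were called, against 44 under DESeq2, 272 with no filter, 131 at an FDR under 0.1 and 6 to 24 without 1 library; DESeq2 called 1 member. Fewer libraries leave fewer degrees of freedom; otherwise the cause was not tested.

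Same-numbered WT and KO libraries were tied to each other by opposite deviations, not by deviating together as paired samples would, and the labels give the numbers no meaning. With the replicate number as a block, 110 genes were called in RNA-seq and 408 in footprints, all among those called without it, and 1 member in footprints (Cd4). In the interaction 2 genes were called with the block within each assay and 17 with a block that joins RNA-seq and footprint libraries of 1 genotype and number, which the labels do not tie to 1 mouse.

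The sign reversed for values close to 0, none of them called: in RNA-seq Cd3d was at -0.0062 and -0.015 (0.055 at the highest without 1 library) and Cd8a at 0.026 and 0.023 without WT or KO replicate 2, and Mir181a-1 at -0.10 and -0.23 without WT or KO replicate 3 (0.63 at the highest). In footprints Cd8b1 was at 0.0048 without KO replicate 1 (-0.027 at the lowest). The excess of Trac was -0.041, -0.043, -0.062 and -0.061 without RNA-seq WT or KO replicate 1 or footprint WT or KO replicate 3 (0.078 at the highest). The footprint to RNA ratio of Mir181a-1 was -1.77 in KO libraries. Directions of the 10 ratios between members held under each alternative. Ptcra rests on the fewest reads of the members, 321 to 1987 per group.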
